A study of Homo sapiens with 16 samples.

Results

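The YAP and TEAD target genes CTGF, CYR61, ANKRD1, AMOTL1, AMOTL2, LATS2, AXL, AJUBA, CRIM1 and TEAD1 were followed in CAL51 cells, an established triple-negative breast cancer line with a near-diploid karyotype and a tetraploid fraction. They were found by their symbols, and all 10 had a row among the 55510 gene symbols of every library. The cells, at passage 10, received CC-671, an inhibitor of the kinases TTK and CLK2, at 3 or 10 µM, or its DMSO vehicle. After 24 or 6 h, poly-A RNA was sequenced from 3 libraries of each dose and time and from 2 DMSO libraries of each time, 16 libraries in 6 groups. The labels name the libraries of a group biological replicates, all from 1 cell line, so p-values speak only of the spread between libraries of that line.

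YAP and its relative TAZ (the gene WWTR1) are transcriptional coactivators that do not bind DNA themselves and act on genes mainly through the TEAD proteins. The Hippo kinase cascade, in which the MST kinases act on LATS1 and LATS2, phosphorylates YAP and TAZ and holds them in the cytoplasm. Several targets feed back on the pathway: LATS2, the angiomotin-like proteins AMOTL1 and AMOTL2 and the LIM protein AJUBA all take part in controlling YAP. CTGF and CYR61 are secreted matricellular proteins and the most widely used readouts of YAP activity.

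Depth at genes was 104609173 to 123789361 read pairs a library, and member counts ran between 878 pairs for AXL and 69476 pairs for CTGF. All 10 members passed the filter on low counts with 22007 genes in all. Levels below are CPM (counts relative to library size, scaled by the trimmed mean of M values, TMM), and differences are log2 fold changes with their SE. A gene was called higher or lower at an adjusted p under 0.05. The line expressed KRT8 (536 to 700 CPM), KRT18 (460 to 619 CPM), EPCAM (264 to 371 CPM) and VIM (208 to 343 CPM). CDH1 lay at 26.2 to 45.2 CPM and ERBB2 at 84.7 to 192 CPM, whereas ESR1 and PGR totalled 31 pairs each over all libraries. Against DMSO, VIM was higher at 24 h (0.68 and 0.54 at 10 and 3 µM) and 6 h (0.44 and 0.30). ERBB2 was lower at 24 h (-0.79 and -0.70) and 6 h (-1.06 and -0.99). CDH1 was lower at 24 h (-0.77 and -0.65) and higher at 6 h (0.21 and 0.13). Lymphocyte markers CD3E and MS4A1, the fibroblast marker DCN and the endothelial marker KDR were at or near 0 (at most 20 pairs over all libraries). The summed fibroblast list (5 of 6 genes tested) was carried by COL3A1 and measured 235 to 250 CPM in treated libraries at 24 h, against 278 to 284 CPM in DMSO. At 6 h it measured 275 to 299 CPM in treated libraries, against 226 to 232 CPM in DMSO. Sums of the leukocyte list (3 of 6 tested; 5.73 to 7.17 CPM, mostly PTPRC) and the endothelial list (8.05 to 10.2 CPM, mostly CDH5) in treated libraries at 24 h lay below those of DMSO (12.5 to 13.3 and 18.5 to 18.8 CPM). At 6 h these sums were 10.8 to 11.8 CPM and 10.2 to 11.8 CPM in treated libraries, against 10.1 to 10.2 CPM and 11.7 to 12.6 CPM in DMSO, and the part of these markers in the results was not tested. Within the leukocyte list, CD14 was higher in all 4 comparisons with vehicle (means of 0.533 CPM at 10 µM and 0.434 CPM at 3 µM against 0.144 CPM in DMSO at 24 h, and 2.77 and 1.68 CPM against 0.152 CPM at 6 h). LYZ, at most 0.151 CPM on average, was higher in 3 of the 4, and PTPRC was lower in 3 of the 4, all but 3 µM at 6 h. Within the endothelial list, CDH5 was lower at both doses at 24 h and did not pass at 6 h. VWF was lower at both doses at 6 h (means of 0.877 CPM at 10 µM and 0.909 CPM at 3 µM against 2.33 CPM in DMSO). At 24 h VWF was lower at 10 µM only. In bulk RNA, fewer cells in a state and less RNA per cell cannot be told apart.

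Library 1 of the 10 µM group at 6 h stood apart for these genes: 9 of the 10 members were highest there within their group of 3, and their summed level was 2159 CPM, against 1846 and 1817 CPM in the other two. Over all genes it did not stand apart: the chi-square per gene was 18 between libraries 1 and 2, 10.4 between 1 and 3 and 11.9 between 2 and 3, against 2.41 to 9.18 in the replicate pairs of other groups. Called member values at 10 µM and 6 h that moved by over 1.5 times or lost their call without library 1 are given both ways. The 2 DMSO libraries at 6 h also differed, with 9 of 10 members higher in library 2. Library 2 of 3 µM at 6 h was lowest in its group for all 10 members. Its summed level was 1652 CPM, against 1772 and 1756 CPM in libraries 1 and 3. Library 3 of 10 µM at 6 h was lowest in its group for 7 members, and library 1 of 10 µM at 24 h for 8.

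TEAD proteins bind the letters GGAATG or a close variant. RefSeq windows of 250 bases before a gene's start (build GRCh38.p14) were given for 7 members in 10 windows: CTGF, ANKRD1, AMOTL1, LATS2, AMOTL2, AXL and AJUBA, of which AMOTL2, AXL and AJUBA had a pair of starts each. On both strands, GGAATG lay in 5 of the 10 windows, against 11.9% of all 35116 windows of the table. TGANTCA is a loose form of the letters bound by AP-1 that takes any middle base. It lay in 1 of the 10 windows (ANKRD1, as TGATTCA), against 6.57% of all. A CArG box, bound by SRF, lay in none, against 1.16% of all. No match overlapped another motif. The CTGF window is shown without its last base (chr6:131951374-131951622, minus strand, 249 bases) because it held 3 matches; 0.0826% of all windows held 3 or more. Capitals mark GGAATG. The first bases of the matches lay 169, 104 and 95 bases before the gene's start.
CTGF: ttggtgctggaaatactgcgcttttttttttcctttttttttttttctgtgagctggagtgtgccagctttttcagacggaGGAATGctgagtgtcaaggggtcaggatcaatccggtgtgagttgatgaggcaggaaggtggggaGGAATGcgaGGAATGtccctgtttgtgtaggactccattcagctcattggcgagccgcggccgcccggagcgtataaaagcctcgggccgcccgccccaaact

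For the other four genes with a match, 30 bases around it are shown in the direction of the gene, with GGAATG or its reverse complement CATTCC in capitals. ANKRD1, shown because it rose most at 24 h, held a pair of matches (chr10:90921290-90921319 and chr10:90921198-90921227, minus strand), 220 and 128 bases before its start; 0.94% of all windows held at least 2. AMOTL2 (chr3:134374499-134374528, minus strand), AJUBA (chr14:22976884-22976913, minus strand) and AXL (chr19:41226531-41226560, plus strand) held 1 each, in the second of their windows. Exons of any gene in GENCODE 29, on either strand, covered all 250 bases of the AJUBA window with the match. They covered 189 bases of the ANKRD1, 147 of the AMOTL2, 1 of the CTGF and 0 of the AXL window with matches. These windows are thus not all upstream of transcribed sequence, and the same count was not made for all windows. These letters are a description of the windows and say nothing about binding in these cells.
ANKRD1 first: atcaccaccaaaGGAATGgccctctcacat
ANKRD1 second: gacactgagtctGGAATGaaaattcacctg
AMOTL2: ctgaaactctcaCATTCCtggcatagcagc
AJUBA: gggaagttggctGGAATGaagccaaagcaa
AXL: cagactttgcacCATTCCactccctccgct

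CTGF was the most abundant member per length of exon in all 6 groups and CYR61 the next; AXL was the least abundant. Divided by the summed exon length of GENCODE 29, CTGF measured 165, 179 and 194 CPM per kb in DMSO, 3 µM and 10 µM at 24 h. CYR61 measured 71.1, 53.3 and 55.7 CPM per kb in the same groups. AXL measured 1.81, 1.63 and 1.58 CPM per kb. CRIM1 came next in DMSO (37.4 CPM per kb at 24 h), and ANKRD1 lay at 22.5 CPM per kb at 10 µM at 24 h, against 8.23 CPM per kb in DMSO. Both matricellular genes are short, with 5 exons over 3.2 kb, while TEAD1 (269.9 kb), CRIM1 (195.2 kb) and AMOTL1 (170.3 kb) span the longest loci. In GENCODE 29, CTGF lies on chromosome 6, CYR61 on 1, ANKRD1 on 10, AMOTL1 and TEAD1 on 11, AMOTL2 on 3, LATS2 on 13, AXL on 19, AJUBA on 14 and CRIM1 on 2.

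**Figure D1:**
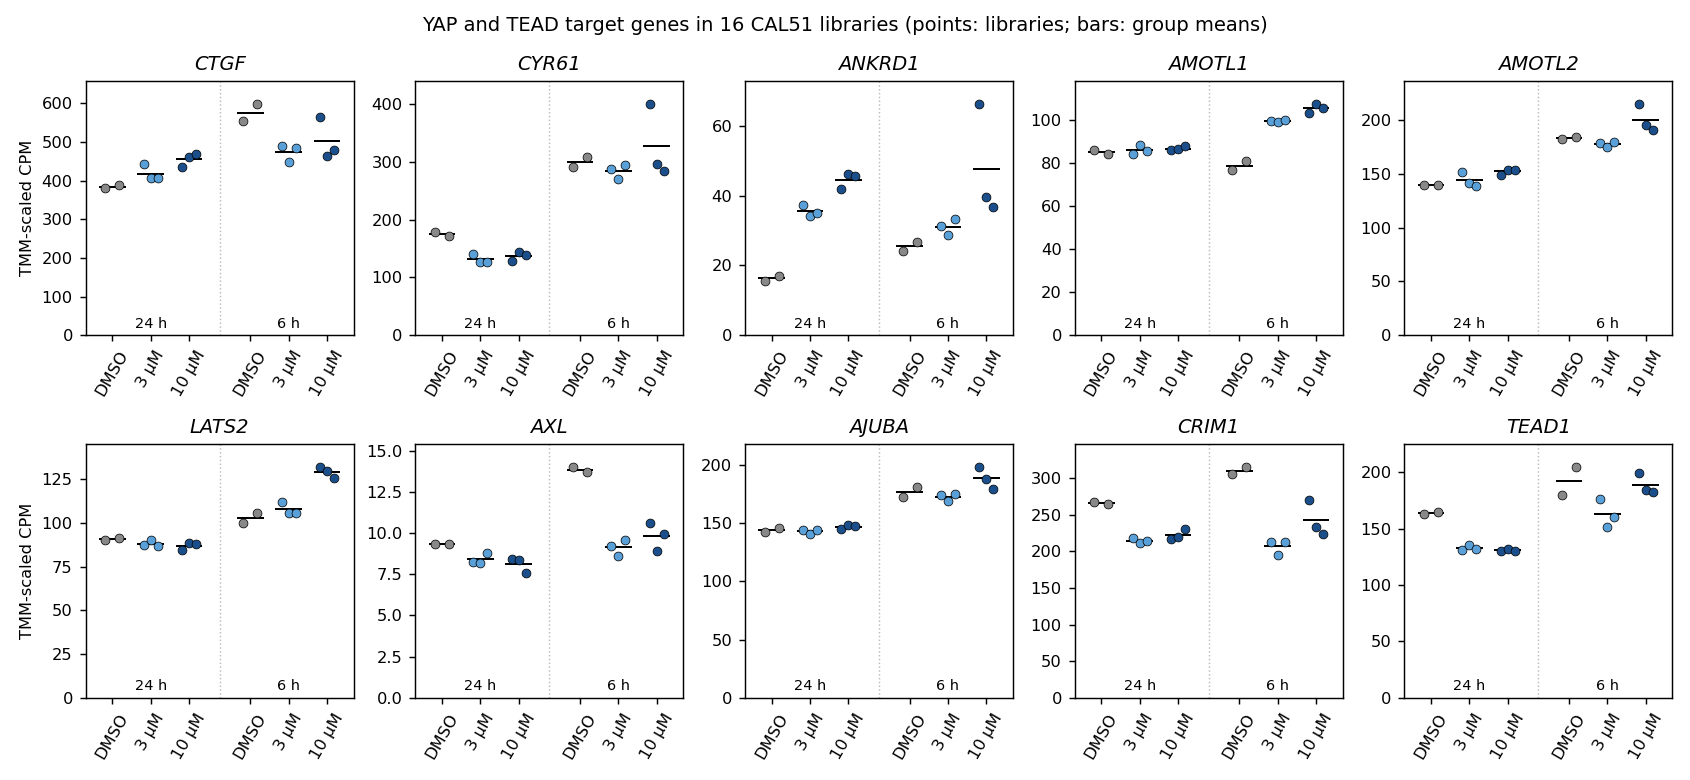
Level of each member in each library, in TMM-scaled CPM on a linear axis that starts at 0; the 24 h libraries stand left of the 6 h libraries, and each bar is a group mean (2 DMSO libraries, 3 libraries of each dose). ANKRD1 at 24 h lies at 34.2 to 46.2 CPM in treated libraries, above 15.5 and 17 CPM in DMSO, and 1 library of 10 µM at 6 h stands above its group for CYR61 and ANKRD1.

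Most members differed in level between DMSO at 24 h and DMSO at 6 h. Between the DMSO groups, 8 of 10 members were lower and 1 was higher at 24 h than at 6 h, where 9.55% of all 22007 genes were called lower and 11% higher. The median of the 10 log2 fold changes was -0.34, and that of all genes was 0. The libraries of both times did not overlap for any of the 10 members. In the lists described below, this also held for 17 of 19 Hippo cascade genes and 9 of 10 actin and SRF genes. It held for 9 of 15 further YAP targets. With 2 libraries per group such separation carries little weight, and its share over all genes was not computed. CYR61 had 178 and 173 CPM at 24 h, against 291 and 308 CPM at 6 h (log2 fold change -0.77 ± 0.14, adjusted p = 0.00243). CTGF had 380 and 390 CPM at 24 h, against 553 and 598 CPM at 6 h (-0.58 ± 0.09, adjusted p = 0.000519). AXL, a receptor tyrosine kinase, had 9.34 and 9.31 CPM at 24 h, against 14 and 13.7 CPM at 6 h (-0.57 ± 0.07, adjusted p = 1.01e-06). AMOTL2 (-0.39 ± 0.04), AJUBA (-0.29 ± 0.04) and LATS2 (-0.18 ± 0.04) fell by less on the log2 scale. AMOTL1 moved the other way, with 86.2 and 84.3 CPM at 24 h, against 76.7 and 80.9 CPM at 6 h (0.11 ± 0.04, adjusted p = 0.0223).

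With 2 libraries per group, some of these calls rested on single libraries. CTGF, CYR61, AMOTL2, LATS2, AXL and AJUBA stayed lower without any 1 of the 4 libraries. CRIM1 (-0.22 ± 0.07) lost its call without any 1 of them (adjusted p = 0.0801 to 0.156). TEAD1 (-0.23 ± 0.06) lost it without DMSO library 2 at 6 h (-0.13, adjusted p = 0.169) and without either DMSO library at 24 h (0.103 and 0.0808), and AMOTL1 without DMSO library 1 at 6 h (0.07, adjusted p = 0.313) or either at 24 h (0.184 and 0.0632). ANKRD1 had 15.5 and 17 CPM at 24 h, against 24.2 and 26.7 CPM at 6 h, and did not pass the test (-0.65 ± 0.25, adjusted p = 0.0933); DESeq2 (0.0239) and limma-voom (0.0181) called it lower.

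In the comparison of the doses at 6 h, all called members lay to one side. Against 3 µM, 10 µM gave 7 higher members and 0 lower, where 12% of all genes were called higher and 12.9% lower; the 3 uncalled members (CTGF, CYR61 and AXL) had values above 0 too. Without library 1 of 10 µM the count was again 7 higher and 0 lower. The values of the 3 uncalled members were then -0.0080 for CTGF, 0.034 for CYR61 and 0.046 for AXL. The count was 5 higher and 0 lower without any 1 library of 3 µM. It was 6 and 0 without library 3 of 10 µM, and 4 and 0 in a fit of these groups alone. LATS2 had 132, 130 and 126 CPM at 10 µM, against 112, 106 and 106 CPM at 3 µM (0.26 ± 0.03, adjusted p = 8.56e-07). AMOTL2 had 215, 195 and 191 CPM at 10 µM, against 179, 175 and 180 CPM at 3 µM (0.17 ± 0.04, adjusted p = 0.000863). ANKRD1 had 66.3, 39.7 and 36.9 CPM at 10 µM, against 31.3, 28.6 and 33.3 CPM at 3 µM (0.62 ± 0.19, adjusted p = 0.0338). In LATS2, AMOTL2 and ANKRD1 every library at 10 µM lay above every library at 3 µM. The ANKRD1 difference was 0.30 without library 1 of 10 µM, and its call was lost without any 1 library of 3 µM (adjusted p = 0.0647 to 0.1) under the replicate block (0.0573), with no count filter (0.0536) and in a fit of these groups alone (0.24). AMOTL1 (0.08 ± 0.03, adjusted p = 0.0405) lost its call without any 1 library of 3 µM or without library 2 or 3 of 10 µM (0.0623 to 0.106) in DESeq2 (0.0535), with RLE scaling (0.069), with no count filter (0.115) and in a fit of these groups alone (0.138). CRIM1 (0.22 ± 0.06), TEAD1 (0.21 ± 0.05) and AJUBA (0.13 ± 0.03) completed the 7; CRIM1 was 0.14 without library 1 of 10 µM and did not pass in a fit of these groups alone (adjusted p = 0.0706). AXL (0.10 ± 0.06), CYR61 (0.20 ± 0.11) and CTGF (0.08 ± 0.07) did not pass, and AXL did without library 2 of 10 µM (0.17, adjusted p = 0.0252).

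At 24 h, no member differed between 10 and 3 µM by edgeR's test (0 of 10; 1 at an unadjusted p under 0.05; 0 by DESeq2 and 0 by limma-voom), where 2.49% of all genes were called higher and 3.85% lower. The 10 log2 fold changes lay between -0.05 and 0.33, with ANKRD1 at the upper end (0.33 ± 0.18, adjusted p = 0.381). ANKRD1 libraries did not overlap, with 42, 46.2 and 45.5 CPM at 10 µM and 37.4, 34.2 and 35 CPM at 3 µM, and the difference passed in a fit of these groups alone (adjusted p = 0.000234).

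**Figure D2:**
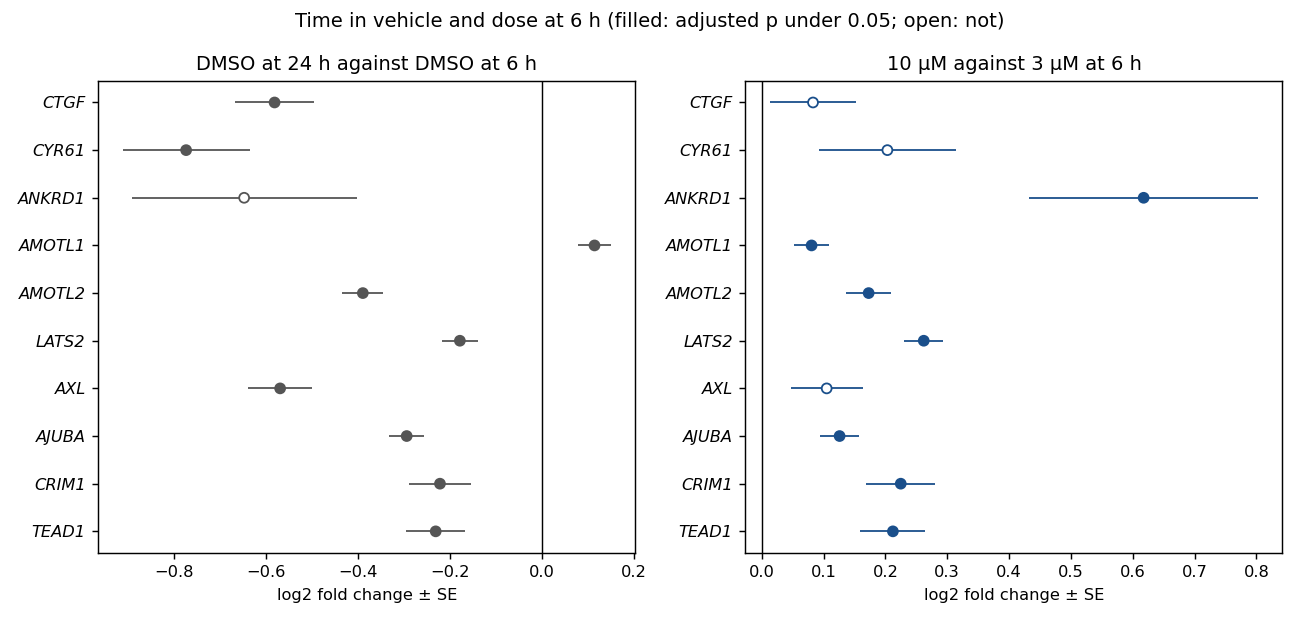
log2 fold change (x axis, ± SE) of each member for DMSO at 24 h against DMSO at 6 h (left; 2 libraries each) and for 10 µM against 3 µM at 6 h (right; 3 libraries each). On the left all genes but AMOTL1 lie below 0, and on the right all 10 lie above 0; filled points passed the test.

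Against vehicle the members went in different directions, in numbers near those of all genes. At 24 h, 3 members were higher and 4 lower at 10 µM, where 31.3% of all genes were higher and 32.3% lower. At 3 µM and 24 h, 1 was higher and 3 were lower, against 29.7% and 30.9% of all genes. With no scaling factor these 24 h counts were 5 higher and 1 lower at 10 µM and 5 higher and 2 lower at 3 µM, where 39.9% and 38.3% of all genes were higher and 24.2% and 22.6% lower. At 6 h, 5 were higher and 3 lower at 10 µM, against 34% and 33.6% of all genes; without library 1 of 10 µM, 3 were higher and 3 lower. At 3 µM and 6 h, 1 was higher and 4 were lower, against 31.6% of all genes higher and 31.6% lower. The comparisons of 10 and 3 µM share the DMSO libraries of their time. Median log2 fold changes of the members were -0.02 and -0.03 for 10 and 3 µM at 24 h and 0.11 and -0.06 for 10 and 3 µM at 6 h. Medians of their absolute values were 0.22 and 0.14 at 24 h and 0.26 and 0.26 at 6 h, against 0.34, 0.31, 0.39 and 0.34 over all genes.

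**Figure D3:**
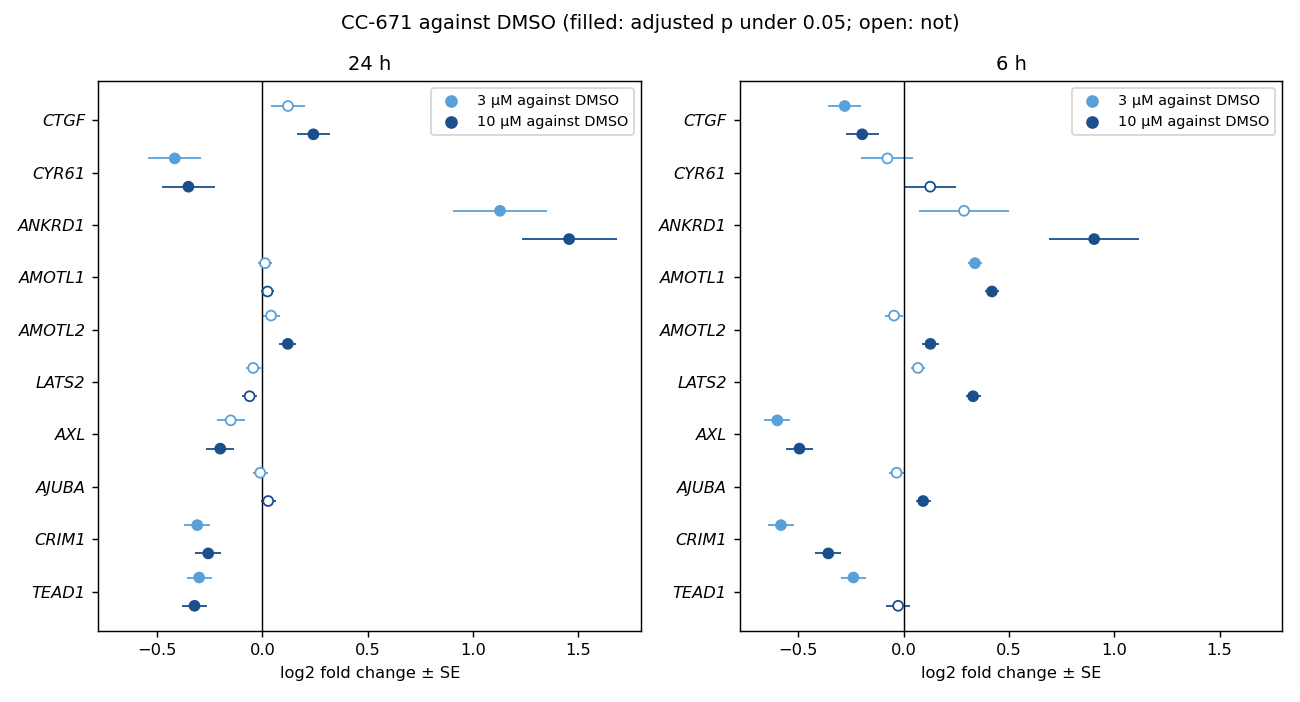
log2 fold change (x axis, ± SE) of each member for 3 µM and 10 µM against DMSO at 24 h (left) and 6 h (right); filled points passed the test at an adjusted p under 0.05. ANKRD1 lies farthest to the right at 24 h (1.13 and 1.46), and AXL and CRIM1 lie farthest to the left at 6 h.

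The matricellular genes CTGF and CYR61 parted at 24 h. CTGF had 380 and 390 CPM in DMSO, 442, 406 and 407 CPM at 3 µM and 435, 461 and 469 CPM at 10 µM at 24 h. It was higher at 10 µM than in DMSO (0.24 ± 0.08, adjusted p = 0.018) and did not pass at 3 µM (0.12 ± 0.08, adjusted p = 0.205), although every treated library lay above both DMSO libraries. The 3 µM value passed with no scaling factor (0.22, adjusted p = 0.0322) and in a fit of these groups alone (0.14, adjusted p = 0.029). The call at 10 µM was lost without DMSO library 1 (adjusted p = 0.0988) or 2 (0.0573). CYR61 had 178 and 173 CPM in DMSO, 141, 127 and 127 CPM at 3 µM and 129, 144 and 139 CPM at 10 µM at 24 h. It was lower at 3 µM (-0.42 ± 0.13, adjusted p = 0.0142) and at 10 µM (-0.35 ± 0.13, adjusted p = 0.0302), with no overlap. The 3 µM call was lost without DMSO library 1 (0.0742) and with no scaling factor (0.0505). The 10 µM call was lost without either DMSO library (0.124 and 0.0797), without library 1 (0.0856) or 3 (0.0566) of 10 µM, with no scaling factor (0.119) and under the replicate block (0.0561).

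At 6 h, CTGF had 553 and 598 CPM in DMSO, 489, 448 and 485 CPM at 3 µM and 564, 463 and 479 CPM at 10 µM. It was lower at 3 µM (-0.28 ± 0.08, adjusted p = 0.00757), a call lost without DMSO library 2 (-0.22, adjusted p = 0.0789). At 10 µM it was lower by a narrow margin (-0.20 ± 0.08, adjusted p = 0.0414): library 1 lay between the DMSO libraries, and without it the value was -0.30. That call was lost without DMSO library 2 (-0.14, adjusted p = 0.245), without library 2 (0.117) or 3 (0.0927) of 10 µM, under the replicate block (0.0608), with no scaling factor (0.0643), with a stricter count filter (0.0907) and in a fit of these groups alone (0.126). CYR61 had 291 and 308 CPM in DMSO, 288, 271 and 294 CPM at 3 µM and 400, 297 and 284 CPM at 10 µM. Neither dose passed the test for CYR61 (-0.08 ± 0.12 at 3 µM and 0.13 ± 0.12 at 10 µM), and without library 1 the 10 µM value was -0.05.

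The counts of CTGF per count of CYR61 separated treated from DMSO libraries within each time, while the doses overlapped. At 24 h the ratio was 2.13 and 2.26 in DMSO, 3.14, 3.2 and 3.21 at 3 µM and 3.37, 3.19 and 3.37 at 10 µM. At 6 h it was 1.9 and 1.94 in DMSO, 1.7, 1.65 and 1.65 at 3 µM and 1.41, 1.56 and 1.68 at 10 µM. Treated libraries thus lay above DMSO at 24 h and below DMSO at 6 h, a ratio that does not depend on library scaling and on which no test was run. Ordered by group mean, CTGF was highest in DMSO at 6 h (576 CPM), followed by 10 µM and 3 µM at 6 h, then 10 µM, 3 µM and DMSO at 24 h (385 CPM), and of these neighbours only the last pair did not overlap. CYR61 was highest at 10 µM at 6 h (327 CPM), followed by DMSO and 3 µM at 6 h, then DMSO, 10 µM and 3 µM at 24 h (131 CPM); the neighbours on either side of DMSO at 24 h did not overlap with it.

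**Figure D4:**
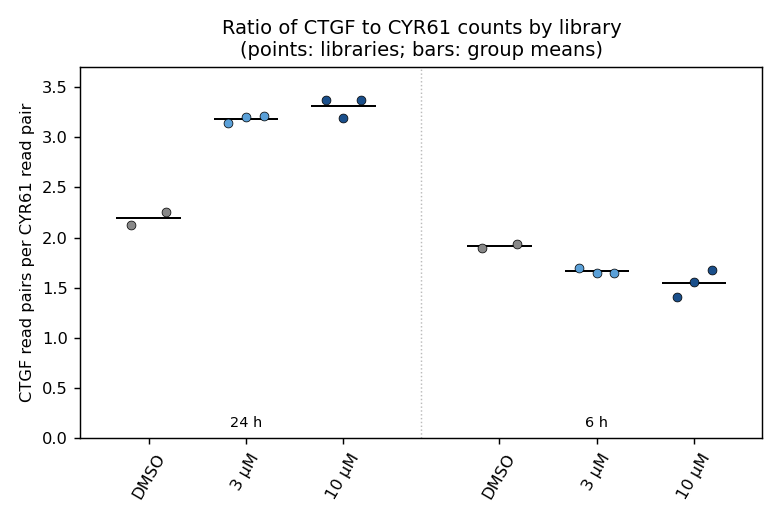
Read pairs of CTGF per read pair of CYR61 (y axis from 0) in each library, with the 24 h libraries left of the 6 h libraries and bars for group means. The 6 treated libraries at 24 h lie between 3.14 and 3.37, and the 6 at 6 h between 1.41 and 1.7.

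ANKRD1, a nuclear ankyrin repeat protein, rose most of the members at 24 h. At that time it had 15.5 and 17 CPM in DMSO, 37.4, 34.2 and 35 CPM at 3 µM and 42, 46.2 and 45.5 CPM at 10 µM. It was higher at 10 µM (1.46 ± 0.23, adjusted p = 0.00017) and at 3 µM (1.13 ± 0.23, adjusted p = 0.00122). ANKRD1 at 6 h had 24.2 and 26.7 CPM in DMSO, 31.3, 28.6 and 33.3 CPM at 3 µM and 66.3, 39.7 and 36.9 CPM at 10 µM. All treated libraries lay above both DMSO libraries. The rise at 10 µM and 6 h passed (0.90 ± 0.21, adjusted p = 0.00295), was 0.58 without library 1, and did not pass in a fit of these groups alone (adjusted p = 0.117). The value at 3 µM did not pass (0.29 ± 0.21, adjusted p = 0.271) but did in a fit of these groups alone (0.000279). By group mean ANKRD1 ran in the order 10 µM at 6 h (47.6 CPM), 10 µM at 24 h, 3 µM at 24 h, 3 µM at 6 h, DMSO at 6 h and DMSO at 24 h (16.3 CPM), and only the first pair of neighbours overlapped.

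AMOTL1, LATS2, AMOTL2 and AJUBA, which take part in controlling YAP, were all called higher at 10 µM at 6 h, where 34% of all genes were. The calls of AMOTL2 (adjusted p = 0.119) and AJUBA (0.249) were lost without library 1 of 10 µM. The effect of 10 µM was smaller at 24 h by its own test for AMOTL1 and LATS2. The difference between the times did not pass for AMOTL2 (-0.007, adjusted p = 0.935) or AJUBA (-0.06, adjusted p = 0.283). AMOTL1, which binds YAP at cell junctions, had 76.7 and 80.9 CPM in DMSO, 99.7, 99.1 and 100 CPM at 3 µM and 103, 107 and 106 CPM at 10 µM at 6 h. It was higher at 10 µM (0.42 ± 0.03, adjusted p = 4.78e-12) and at 3 µM (0.34 ± 0.03, adjusted p = 4.92e-10), and treated and DMSO libraries did not overlap. At 24 h it had 86.2 and 84.3 CPM in DMSO, 84.3, 88.2 and 85.5 CPM at 3 µM and 86, 86.4 and 87.8 CPM at 10 µM. Neither dose passed at 24 h (0.02 ± 0.03 at 10 µM and 0.01 ± 0.03 at 3 µM), and the difference between the times did: -0.39 ± 0.05 at 10 µM (adjusted p = 2.74e-08) and -0.33 ± 0.05 at 3 µM (adjusted p = 9.55e-07). With no scaling factor both 24 h values passed as rises (0.14, adjusted p = 0.000405, and 0.11, adjusted p = 0.00234). AMOTL1 was highest at 10 µM at 6 h, then 3 µM at 6 h, each apart from its neighbours, and lowest in DMSO at 6 h; the 24 h groups between them overlapped one another.

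LATS2, the kinase that phosphorylates YAP and TAZ, had 99.9 and 106 CPM in DMSO, 112, 106 and 106 CPM at 3 µM and 132, 130 and 126 CPM at 10 µM at 6 h. It was higher at 10 µM (0.33 ± 0.04, adjusted p = 2.87e-09) and did not pass at 3 µM (0.07 ± 0.04, adjusted p = 0.0942), where it passed without DMSO library 2 (0.11, adjusted p = 0.0389), with no scaling factor (0.0253) and with a stricter count filter (0.0163). At 24 h it had 90.1 and 91.5 CPM in DMSO, 87.2, 90 and 87 CPM at 3 µM and 84.6, 88.5 and 88.1 CPM at 10 µM. The 24 h values did not pass (-0.06 ± 0.04 at 10 µM and -0.04 ± 0.04 at 3 µM), and with no scaling factor both were above 0 (0.05 and 0.06). The effect of 10 µM was lower at 24 h than at 6 h by a tested difference of -0.39 ± 0.05 (adjusted p = 1.37e-07). Its level was highest at 10 µM at 6 h (129 CPM), apart from all other groups, and lowest at 10 µM at 24 h (87.1 CPM).

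AMOTL2 and AJUBA kept close to each other over the libraries. AMOTL2, like AMOTL1 an angiomotin-like junction protein, had 140 and 140 CPM in DMSO, 152, 142 and 138 CPM at 3 µM and 149, 154 and 153 CPM at 10 µM at 24 h. AMOTL2 at 6 h had 183 and 184 CPM in DMSO, 179, 175 and 180 CPM at 3 µM and 215, 195 and 191 CPM at 10 µM. It was higher at 10 µM at both times, by 0.12 ± 0.04 at 24 h (adjusted p = 0.0122) and 0.13 ± 0.04 at 6 h (adjusted p = 0.00732). The 24 h call was lost without either DMSO library (0.0641 and 0.0639), and its value was 0.23 with no scaling factor. The 6 h call was lost without library 1 of 10 µM (0.06, adjusted p = 0.119), without DMSO library 1 (0.078) and in a fit of these groups alone (0.0502). Neither value at 3 µM passed (0.04 ± 0.04 at 24 h, adjusted p = 0.399; -0.05 ± 0.04 at 6 h, adjusted p = 0.34), although with no scaling factor the 24 h value did (0.14, adjusted p = 0.00534).

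AJUBA, a LIM scaffold that binds the LATS kinases, had 142 and 146 CPM in DMSO, 144, 141 and 144 CPM at 3 µM and 145, 148 and 147 CPM at 10 µM at 24 h. AJUBA at 6 h had 172 and 181 CPM in DMSO, 174, 169 and 175 CPM at 3 µM and 198, 188 and 179 CPM at 10 µM. Only 10 µM at 6 h passed (0.09 ± 0.04, adjusted p = 0.0213), with overlapping libraries, and the call was lost without library 1 of 10 µM (0.04, adjusted p = 0.249), without DMSO library 1 (0.386), with no count filter (0.0874) and in a fit of these groups alone (0.119); a stricter filter gave 0.14. Its other values lay between -0.03 and 0.03, and with no scaling factor those at 24 h passed as rises (0.14, adjusted p = 0.000964, at 10 µM and 0.09, adjusted p = 0.0237, at 3 µM). For both genes all 6 h groups lay above all 24 h groups by their means.

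The membrane proteins AXL and CRIM1 were lower at both doses at 6 h, and CRIM1 at both doses at 24 h as well. AXL had 14 and 13.7 CPM in DMSO, 9.2, 8.62 and 9.59 CPM at 3 µM and 10.6, 8.89 and 9.96 CPM at 10 µM at 6 h. It was lower at 10 µM (-0.49 ± 0.06, adjusted p = 5.9e-08) and at 3 µM (-0.60 ± 0.06, adjusted p = 2.2e-09), and no treated library reached the DMSO libraries. At 24 h it had 9.34 and 9.31 CPM in DMSO, 8.25, 8.21 and 8.76 CPM at 3 µM and 8.42, 8.35 and 7.59 CPM at 10 µM. The smaller difference at 24 h passed at 10 µM (-0.20 ± 0.07, adjusted p = 0.00981), except without DMSO library 1 (0.0536), without library 3 of 10 µM (-0.15, adjusted p = 0.0603) or with no scaling factor (-0.09, adjusted p = 0.254). At 3 µM it missed the threshold (-0.15 ± 0.07, adjusted p = 0.0505), and it passed without library 3 of 3 µM (0.0372), under the replicate block (0.0456), with RLE scaling (0.0389), with no count filter (0.0361) and in a fit of these groups alone (0.0276). The DMSO libraries at 24 h lay at the level of the treated libraries at 6 h, and by group mean only DMSO at 6 h (13.8 CPM) stood apart from its neighbour.

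CRIM1, a transmembrane protein that binds bone morphogenetic proteins, was lower in all 4 comparisons with vehicle, the only member of which this held. At 24 h it had 267 and 264 CPM in DMSO, 218, 211 and 214 CPM at 3 µM and 217, 220 and 231 CPM at 10 µM. CRIM1 at 6 h had 305 and 315 CPM in DMSO, 213, 195 and 213 CPM at 3 µM and 270, 233 and 224 CPM at 10 µM. Treated and DMSO libraries did not overlap at either time. The log2 fold changes were -0.26 ± 0.06 at 10 µM (adjusted p = 0.00207) and -0.31 ± 0.06 at 3 µM (adjusted p = 0.000523) at 24 h. Those at 6 h were -0.36 ± 0.06 at 10 µM (adjusted p = 0.000107) and -0.58 ± 0.06 at 3 µM (adjusted p = 7.54e-07). With no scaling factor the 24 h value at 10 µM did not pass (-0.15, adjusted p = 0.0564).

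TEAD1, the DNA-binding partner of YAP and itself a target, had 163 and 165 CPM in DMSO, 131, 135 and 132 CPM at 3 µM and 131, 132 and 130 CPM at 10 µM at 24 h. It was lower at 10 µM (-0.32 ± 0.06, adjusted p = 0.000175) and at 3 µM (-0.30 ± 0.06, adjusted p = 0.000374), with -0.21 and -0.20 where no scaling factor was used. TEAD1 at 6 h had 180 and 205 CPM in DMSO, 177, 152 and 161 CPM at 3 µM and 200, 184 and 182 CPM at 10 µM. The 6 h value passed at 3 µM (-0.24 ± 0.06, adjusted p = 0.00216; -0.14 without DMSO library 2) and not at 10 µM (-0.03 ± 0.06, adjusted p = 0.716; -0.08 without library 1 of 10 µM and 0.07 without DMSO library 2). Its level was highest in DMSO at 6 h (192 CPM) and lowest at 10 µM at 24 h (131 CPM), and the 2 treated groups at 24 h overlapped each other and no other group.

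TEAD1, CRIM1 and AMOTL1 were the 3 members over 100 kb long. Over the 2790 tested protein-coding genes of that span, the median log2 fold change against DMSO was -0.18 at 10 µM and -0.15 at 3 µM at 24 h, and -0.22 at 10 µM and -0.21 at 3 µM at 6 h. Over the 2753 such genes under 10 kb it was 0.06 and 0.05 at 24 h and 0.15 and 0.14 at 6 h. TEAD1 and CRIM1 thus lay on the side of long genes, though TEAD1 at 10 µM and 6 h did not pass (-0.03 ± 0.06). AMOTL1 lay on the other side at 6 h. Of the members under 10 kb, ANKRD1 lay above 0 in every comparison with vehicle. CTGF lay below 0 at 6 h and above 0 at 24 h, and CYR61 lay below 0 at 24 h. The part of gene length was not tested. The share of pairs outside exons moved with treatment as well, at 5.93% and 5.8% in 10 and 3 µM against 4.43% in DMSO at 24 h, and 6.65% and 5.91% against 4.57% at 6 h.

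The effect of treatment differed between the times for 6 of 10 members at 10 µM and 5 of 10 at 3 µM, where 54% and 49.3% of all genes did so. CTGF had the effects 0.24 at 24 h and -0.20 at 6 h under 10 µM, a tested difference of 0.44 ± 0.11 (adjusted p = 0.00509), and 0.40 ± 0.11 under 3 µM (adjusted p = 0.00976). CYR61 shifted the other way under 10 µM (-0.48 ± 0.18, adjusted p = 0.0416), by -0.30 without library 1 of 10 µM at 6 h. This call was lost without any 1 library of its groups at 24 h or of DMSO at 6 h (adjusted p = 0.0508 to 0.128), under the replicate block (0.056), with no scaling factor (0.0943), with no count filter (0.0789) and in a fit of these groups alone (0.108). CTGF held its call without any 1 library.

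The coactivators and other partners of TEAD did not move as one. YAP1 had a mean of 347 CPM at 10 µM and 335 CPM at 3 µM at 6 h, against 282 CPM in DMSO (0.30 ± 0.03, adjusted p = 5.53e-10, and 0.25 ± 0.03, adjusted p = 2.23e-08), and did not pass at 24 h (-0.04 at both doses). WWTR1, the TAZ gene, was higher at 6 h (0.29 and 0.21 at 10 and 3 µM) and lower at 24 h (-0.13 and -0.17). VGLL4, which competes with YAP for TEAD, was higher at 6 h (0.20 and 0.16) and did not pass at 24 h (0.04 and 0.03). Of the TEAD1 relatives, TEAD2 and TEAD4 were lower in all 4 comparisons with vehicle. TEAD2 averaged 36.5 CPM at 10 µM and 38.3 CPM at 3 µM at 24 h, against 94 CPM in DMSO (-1.36 ± 0.04, adjusted p = 6.33e-21, and -1.29 ± 0.04, adjusted p = 3.31e-20). At 6 h TEAD2 was lower by a similar size (-1.21 and -1.09). TEAD4 had values of -0.41 and -0.36 at 24 h and -1.06 and -0.94 at 6 h. TEAD3 was lower at 6 h (-0.48 and -0.37) and did not pass at 24 h (0.03 and 0.07). VGLL1 and VGLL3 lay under 0.2 CPM on average in every group and passed in no comparison with vehicle, and VGLL2 had 0 pairs in any library and was not tested. Of the 8 tested genes of this list, 0 rose and 3 fell at each dose at 24 h, and 3 rose and 3 fell at each dose at 6 h. With no scaling factor the 24 h counts were 3 higher and 2 lower at 10 µM and 3 higher and 3 lower at 3 µM. Of all genes, 31.3% were higher and 32.3% lower at 10 µM at 24 h, and 29.7% and 30.9% at 3 µM. Without a scaling factor these shares were 39.9% and 24.2% at 10 µM and 38.3% and 22.6% at 3 µM. The 6 h shares were 34% and 33.6% at 10 µM and 31.6% and 31.6% at 3 µM.

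Of 15 further genes of a YAP and TAZ signature from cancer cell lines, 1 was higher and 11 were lower at each dose at 24 h, with medians of -0.31 at 10 µM and -0.31 at 3 µM; with no scaling factor 3 were higher and 8 lower at each dose. At 6 h, 3 were higher and 10 lower at 10 µM, and 2 higher and 10 lower at 3 µM, with medians of -0.34 and -0.46. Of all genes, 31.3% were higher and 32.3% lower at 10 µM at 24 h, and 29.7% and 30.9% at 3 µM. Without a scaling factor these shares were 39.9% and 24.2% at 10 µM and 38.3% and 22.6% at 3 µM. The 6 h shares were 34% and 33.6% at 10 µM and 31.6% and 31.6% at 3 µM. GADD45A, a growth arrest gene also driven by p53 and stress, was higher in all 4 comparisons. It averaged 67.6 CPM at 10 µM and 58.8 CPM at 3 µM at 24 h, against 17.8 CPM in DMSO (1.93 ± 0.15 and 1.73 ± 0.15). It was higher at 6 h too (1.56 and 0.98), as was NT5E, an ectonucleotidase (0.41 and 0.37). Among the falls were CCDC80, a matrix protein (-1.13 at 10 µM at 24 h), TGFB2, a growth factor ligand (-0.93 at 3 µM at 24 h), ARHGEF17, a guanine nucleotide exchange factor (-1.13 and -1.07 at 6 h, and -1.02 at 10 µM at 24 h), and F3, tissue factor (-0.93 and -0.91 at 6 h).

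In the Hippo cascade, 6 of 19 genes were higher and 9 lower at 10 µM at 24 h, and 3 and 8 at 3 µM; with no scaling factor 8 were higher and 8 lower at each dose. At 6 h, 5 were higher and 11 lower at 10 µM, and 4 and 9 at 3 µM. Of all genes, 31.3% were higher and 32.3% lower at 10 µM at 24 h, and 29.7% and 30.9% at 3 µM. Without a scaling factor these shares were 39.9% and 24.2% at 10 µM and 38.3% and 22.6% at 3 µM. The 6 h shares were 34% and 33.6% at 10 µM and 31.6% and 31.6% at 3 µM. At 24 h, the kinase TAOK2 (0.27 and 0.22 at 10 and 3 µM) and the AJUBA relative LIMD1 (0.25 and 0.18) were higher. The protocadherin DCHS1 (-1.33 and -1.30) and the angiomotin AMOT (-0.95 and -0.78), both at or under 5.3 CPM on average, were lower. At 6 h, DCHS1 was higher instead (0.90 and 0.32), as was the MST scaffold SAV1 (0.42 and 0.24), while the kinase MAP4K4 (-1.10 and -1.03) and the scaffold WWC2 (-1.02 and -1.06) were lower.

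Among 12 tested relatives of members, some of which also stand in the Hippo and TEAD lists, 2 were higher and 8 lower at 10 µM at 24 h, and 2 and 7 at 3 µM; with no scaling factor 4 were higher and 6 lower at each dose. At 6 h, 3 were higher and 9 lower at 10 µM, and 3 and 8 at 3 µM. Of all genes, 31.3% were higher and 32.3% lower at 10 µM at 24 h, and 29.7% and 30.9% at 3 µM. Without a scaling factor these shares were 39.9% and 24.2% at 10 µM and 38.3% and 22.6% at 3 µM. The 6 h shares were 34% and 33.6% at 10 µM and 31.6% and 31.6% at 3 µM. The ANKRD1 relatives went opposite ways at levels under 1 CPM: ANKRD23 was higher (1.55 and 1.49 at 24 h, 0.74 and 0.82 at 6 h) and ANKRD2 lower (-1.40 and -1.01 at 24 h, -0.90 and -1.25 at 6 h). NOV, of the same CCN family as CTGF and CYR61, was lower at 24 h (-0.74 and -0.73) and higher at 6 h (0.39 and 0.30). WISP1, WISP2 and WISP3 of that family had at most 9 pairs in a library and were not tested.

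Genes of the actin cytoskeleton and of SRF, whose activity responds to actin as that of YAP does, were lower throughout at 24 h. All 10 listed genes passed at each dose, also with no scaling factor, with medians of -0.94 at 10 µM and -0.82 at 3 µM, beside -0.02 and -0.03 for the members. CNN1, an actin-binding calponin, fell most (-2.45 and -2.21), followed by ACTA2, smooth muscle actin (-1.75 and -1.49). At 6 h, 4 were higher and 4 lower at 10 µM, and 2 and 4 at 3 µM, among them the myosin light chain MYL9 (0.25 and 0.16) and the tropomyosin TPM2 (0.17 and 0.13) as rises, and vinculin, VCL (-0.72 and -0.63), and TPM1 (-0.42 and -0.36) as falls. Of all genes, 32.3% were lower at 10 µM and 30.9% at 3 µM at 24 h, and 24.2% and 22.6% without a scaling factor. The 6 h shares were 34% higher and 33.6% lower at 10 µM, and 31.6% and 31.6% at 3 µM. The lists were not set against each other by a test.

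**Figure D5:**
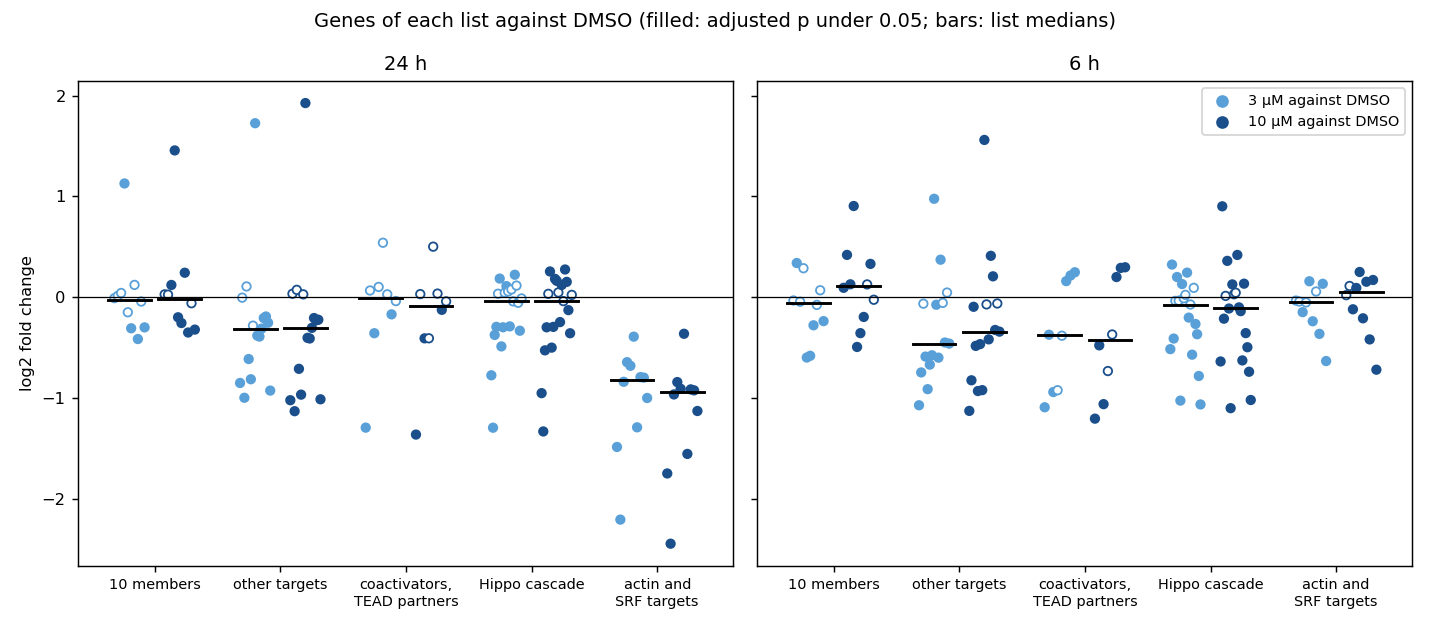
log2 fold change (y axis) of each tested gene of the 10 members and of 4 further lists, for 3 µM and 10 µM against DMSO at 24 h (left) and 6 h (right); bars mark list medians, and filled points passed the test. At 24 h all actin and SRF points lie below 0, whereas the members lie on both sides.

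Likeness of pattern was measured over the 16 libraries as the root mean square difference of log2 CPM centred per gene, among 12151 genes (average log2 CPM 1 or above). The nearest genes to CTGF were TNFRSF12A (0.08), ADM (0.09) and MAP3K14 (0.10), while the root mean square of CTGF itself about its mean was 0.18. To CYR61 they were THBS1 (0.14), MT1M (0.17) and GEM (0.18), against 0.56 for CYR61 itself, and no member came closer to CYR61 than TEAD1 (0.37). EREG was nearest to ANKRD1 (0.10 against 0.51), PLAU to AXL (0.09 against 0.24), PHF13 to AMOTL1 (0.02 against 0.14), CDC42EP3 to LATS2 (0.05 against 0.21), TXNDC11 to CRIM1 (0.06 against 0.20) and RPS6KL1 to TEAD1 (0.07 against 0.23). AJUBA was the nearest of all genes to AMOTL2 (0.05 against 0.20), and SH3BP4 was the nearest to AJUBA (0.05 against 0.16). AMOTL2 was thus the 1 member whose nearest gene was another member.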

How the data were processed

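The authors deposited, for each library, raw counts of read pairs for every gene symbol; per the submitters' processing notes, STAR, HTSeq, edgeR and the build hg19 (GRCh37) were used. Versions, annotation release and strand setting: not given in the sources used here, so antisense and overlapping genes (an antisense locus lies over CTGF in GENCODE 29) are uncertain. Per the labels' protocols, libraries were strand-specific and from poly-A RNA, read as pairs. Non-gene entries (16.9 to 20.2% of pairs) were kept out. Low counts were filtered with edgeR 4.0.16 (filterByExpr with its minimum count of 10 and total of 15), TMM scaling factors ran between 0.963 and 1.05, and robust quasi-likelihood tests, two-sided, used 6 group means fitted over 16 libraries (R 4.3.3). Benjamini-Hochberg adjustment ran over all 22007 genes of each of 9 comparisons. The SE is the absolute log2 fold change over the square root of F. The procedure was tested on simulated data, with changed genes drawn from all tested genes and from those with average log2 CPM 1 or above. Recovery of planted changes was required only for genes with average log2 CPM 1 or above, because low counts limited it among all tested genes. The smallest planted change exceeded most member changes reported here, so recovery of changes of their size was not tested. Alternatives were DESeq2 1.42.0, limma-voom (limma 3.58.1), other scalings and count filters, fits of the compared groups alone, the replicate block and leaving out each library. Members and lists were chosen with earlier results of these data known. Named were all members, the coactivators and TEAD partners, and per list and comparison with vehicle up to 2 called genes with the largest rise and fall; nearest patterns were taken for CTGF and CYR61 (3 each) and the other members (1 each), leaving out clone-named loci. Exon lengths and spans are from GENCODE 29 and promoter windows from RefSeq, both on GRCh38, matched by symbol and not used for counting.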

Additional observations from a re-analysis of the deposited data

Results flagged for a closer look

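For the results here, the effect of CC-671 against DMSO at 24 h differed from that at 6 h by a test of the difference itself (edgeR, adjusted p under 0.05). Under 10 µM the difference, 24 h effect minus 6 h effect on the log2 scale, was 0.44 for CTGF, -0.48 for CYR61, -0.39 for AMOTL1, -0.39 for LATS2, 0.29 for AXL and -0.30 for TEAD1. Under 3 µM it was 0.40 for CTGF, 0.84 for ANKRD1, -0.33 for AMOTL1, 0.45 for AXL and 0.27 for CRIM1. As 54% and 49.3% of all genes had such a difference at 10 and 3 µM, these counts lie near the background. The ANKRD1 difference lost its call without any 1 of the 10 libraries compared (adjusted p = 0.0502 to 0.131). CRIM1 lost it without DMSO library 2 at 24 h (0.0553) or at 6 h (0.0743), and the difference for TEAD1 was -0.19 without DMSO library 1 at 6 h. The TEAD1 call was lost with no scaling factor (adjusted p = 0.0717). Without library 1 of 10 µM at 6 h, ANKRD1 (0.88, adjusted p = 1.68e-06) and CRIM1 (0.19, adjusted p = 0.00238) passed under 10 µM as well.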

How the results depend on the processing

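Over all results and alternatives, 1139 of 1280 values kept their direction and side of the threshold, 86 lost a call, 30 gained one and 25 changed sign; the causes were not tested. In a fit of the compared groups alone, which has fewer libraries, 4 members were called for 10 µM against DMSO at 6 h, 4 for 10 against 3 µM at 6 h and 1 for 10 against 3 µM at 24 h. With no scaling factor 7 were called for 3 µM against DMSO at 24 h; the median of all genes then moved by 0.101 at 3 µM and 0.111 at 10 µM at 24 h. The share of higher calls became 62.9% (48.9% with TMM) and 62.3% (49.2%), 50.2% (39.3%) for 10 against 3 µM at 24 h, and 61.9% (51.9%) and 61.3% (51.1%) for the 24 h minus 6 h effects of 3 and 10 µM. Leaving out 1 library gave 3 to 7 called members for 10 µM at 24 h (3 without DMSO library 1, 4 without library 2) and 3 to 4 for the 3 µM difference between times. No value that passed the test changed sign under any alternative run. Uncalled values that did so with no scaling factor were LATS2 (0.057 at 3 µM and 0.050 at 10 µM, 24 h), AJUBA (0.091 at 3 µM, 24 h; 0.030 for the 10 µM difference between times), TEAD1 (0.015 for the 3 µM difference) and AMOTL2 (0.088 for the 10 µM difference, 0.011 with no count filter). A stricter filter did so for TEAD1 at 10 µM, 6 h (0.021) and AJUBA at 3 µM, 24 h (0.028, and 0.0076 in a fit of these groups alone). Ranges over left-out libraries that cross 0 were AJUBA -0.082 to 0.0014 (3 µM, 6 h), -0.028 to 0.0038 (3 µM, 24 h) and -0.013 to 0.071 (3 µM difference), CYR61 -0.055 to 0.21 (10 µM, 6 h), TEAD1 -0.13 to 0.070 (10 µM, 6 h) and -0.16 to 0.043 (3 µM difference), AMOTL1 -0.0064 to 0.028 (3 µM, 24 h) and -0.0038 to 0.030 (10 against 3 µM, 24 h), CTGF -0.0080 to 0.14 (10 against 3 µM, 6 h), LATS2 -0.030 to 0.0024 (10 against 3 µM, 24 h) and AMOTL2 -0.033 to 0.056 (10 µM difference).

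Same-numbered libraries did not deviate together (correlations -0.0757 to 0.0808, 0 of 36 over 0.1; 5 of 16 libraries correlated best with their own number). Under the replicate block, 6 members were called for 10 µM at 24 h (7 without it), 7 for 10 µM at 6 h (8), 5 for 3 µM at 24 h (4) and 6 for 10 against 3 µM at 6 h (7). Calls against DMSO at differences near the size of the scaling shift depended on that scaling or on single libraries, with 2 DMSO libraries per time.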
